A study of Arabidopsis thaliana with 4 samples.

Results

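SNARE proteins and EXO70 proteins act at the last steps of vesicle traffic, where a vesicle is held at its target membrane and fuses with it. The genes described here are the 59 genes, of 32538 in the deposited FPKM table, whose symbol begins with SYP, VAMP or SNAP followed by a digit, or with EXO70 or ATEXO70. They comprise 36 SNARE genes and 23 EXO70 genes. Membership was decided by symbol alone, so SNAREs filed under another symbol, among them KNOLLE (SYP111), VAMP713, VAMP722 and VAMP724, are outside the set and are given separately below. Of the 59 genes, 45 averaged 1 FPKM or more across the 4 libraries and were tested, namely 29 SNARE genes and 16 EXO70 genes.

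In plants as in other eukaryotes, a vesicle carries an R-SNARE (VAMP) that zips together with Q-SNAREs (syntaxins, called SYP in plants, and SNAP25-like proteins) on the target membrane, and this bundle drives the membranes to fuse. Each compartment, from the endoplasmic reticulum through the Golgi and trans-Golgi network to the vacuole, the plasma membrane and the cell plate, has its own set. The exocyst is a tethering complex that holds secretory vesicles at the plasma membrane before fusion, and EXO70 is its subunit that binds membrane lipids. Land plants carry many EXO70 genes where yeast and animals have few, and several of them have been tied to wall deposition, pollen tube growth and defence. A dark-grown hypocotyl lengthens mainly by cell expansion, which needs a steady delivery of wall material to the cell surface.

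Poly(A) RNA was sequenced from hypocotyls of 5-day-old Arabidopsis thaliana seedlings grown in the dark at 22 °C on MS medium, in 2 libraries of the Col-0 wild type and 2 of shr-2, a loss-of-function allele of SHORT-ROOT (SHR), the transcription factor that patterns the endodermis. A germination time of 24 hours was recorded for all 4 libraries. The design text calls the libraries of each genotype biological duplicates, and no other treatment or allele separates the groups by their titles. Other label fields go against the titles: the tissue field reads root tip in all 4 libraries, and the genotype field of both mutant libraries names an SCL28 overexpression line. SHR stood at 28.4 and 28.9 FPKM in wild type and at 2.57 and 3.45 FPKM in shr-2, a log2 difference of -2.90 (adjusted p = 0.00049) that goes with the titles. SCL28 stood at 5.00 and 5.24 FPKM in wild type and at 5.81 and 5.57 FPKM in shr-2, a log2 difference of 0.13 (adjusted p = 0.412). The 11 root tip and root hair markers reached at most 0.671 FPKM in any library, so the defining markers of the labelled root tip were near 0. Of the 6 endodermis markers, 6 fell, their summed level being 457 and 544 FPKM in wild type against 19.2 and 22.0 FPKM in shr-2. Of the 4 stomatal lineage markers 2 rose, and their summed level was 12.0 FPKM in both wild type libraries against 18.4 and 18.7 FPKM in shr-2. Of the 5 markers of dividing cells 1 fell (CDKB2;1, by 0.42 on the log2 scale, adjusted p = 0.0314). The other 4 lay above 0 without passing the test, 3 of them (CYCB1;1, HIK and PLE) with both shr-2 libraries above both wild type libraries, and the median of the 5 was 0.20. Of the 3 xylem markers 1 rose. Beside these marker counts, 13.7% of all genes tested fell and 13.9% rose. In bulk tissue, fewer cells of a type and less RNA per cell cannot be told apart, and the part of these cell types in the results below was not tested.

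Over the 45 tested genes, the SNARE and EXO70 transcripts were mostly lower in shr-2, by small amounts. With limma on log2(FPKM + 1) and Benjamini-Hochberg adjustment over all 19920 genes tested, 17 of the 45 fell and 1 rose (EXO70C2), while 13.7% of all genes tested fell and 13.9% rose. The 17 comprised 10 of the 29 tested SNARE genes and 7 of the 16 tested EXO70 genes. The median log2 difference, shr-2 minus wild type, was -0.27 over the 45 genes and 0.01 over all genes tested. Below 0 lay 39 of the 45 differences, against 48.5% of all genes. Both shr-2 libraries lay below both wild type libraries in 32 of the 45 (32.2% of all genes) and above both in 4 (33.9% of all genes). The filter did not select genes through 1 genotype, since each tested member was above 1 FPKM in every library, the lowest value being 1.02 FPKM for SYP73 in the first shr-2 library. In the authors' deposited table, 12 of the 47 members tested there were called lower and 0 higher, beside 12.2% and 12.6% of all genes, and all 12 were among the 17. SYP22, SYP71, SYP122, EXO70E1 and EXO70F1 were lower only in the limma fit.

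The number of calls rested on having both libraries of each genotype. Without either wild type library, the share of tested members called lower was close to that of all genes. With the first wild type library left out, 2 members were called lower and 0 higher, while 5.49% of all genes were lower and 4.84% higher. With the second left out, 3 members were lower and 0 higher, beside 5.81% and 5.56% of all genes. With the first shr-2 library left out, 7 members were lower and 1 higher, beside 8.99% and 10.3% of all genes, and with the second left out 7 and 1, beside 9.03% and 8.21%. SYP31 and SYP41 were called in all 4 such fits and SYP112 in 3. EXO70H1, EXO70H2, EXO70C1 and the higher EXO70C2 were called in 2, losing the call without either wild type library, and SYP123 and VAMP711 in 1. The other 9 called members (EXO70B2, EXO70D2, EXO70E1, EXO70F1, SYP22, SYP52, SYP71, SYP73 and SYP122) kept no call when any library was left out.

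**Figure D1:**
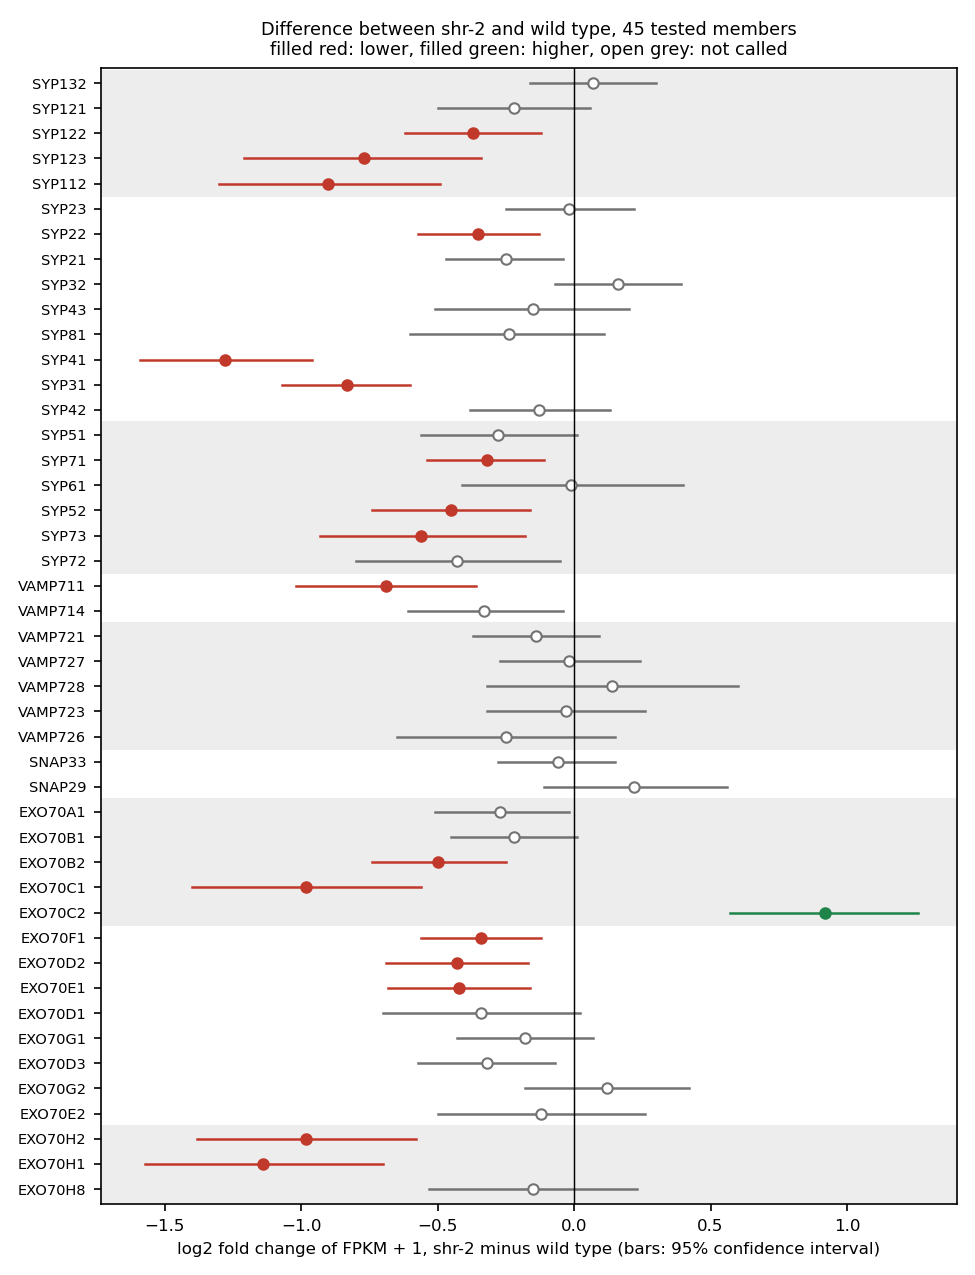
Log2 difference of log2(FPKM + 1), shr-2 minus wild type, with its 95% confidence interval from limma for each of the 45 tested members, grouped by role. Most points lie left of 0, SYP41 is the lowest at -1.28 and EXO70C2 is the highest at 0.92.

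Among the Qa-SNAREs of inner membranes, 3 of 9 tested genes fell (33.3%, beside 13.7% of all genes). Each of the 3 had a close relative that did not pass the test. SYP41, a syntaxin of the trans-Golgi network, lies at TAIR10 chr5:9488133-9491092 on the minus strand. Its level was 18.9 and 22.9 FPKM in wild type and 7.93 and 8.05 FPKM in shr-2. The groups did not overlap, and the drop was -1.28 ± 0.12 on the log2(FPKM + 1) scale (SE, 2 against 2 libraries, adjusted p = 0.00289). It was the largest of any member on that scale only: as a ratio of mean FPKM, wild type over shr-2, it was 2.62, below 2.96 for EXO70H1 and 2.65 for EXO70C1. SYP42 and SYP43, the other trans-Golgi syntaxins of this clade, act in overlapping fashion with SYP41 in secretion and vacuolar transport. SYP42 was at 9.19 and 8.95 FPKM in wild type and at 8.55 and 7.91 FPKM in shr-2, a log2 difference of -0.13 (95% interval -0.38 to 0.13, adjusted p = 0.401). SYP43 was at 23.9 and 24.1 FPKM in wild type and at 24.4 and 19.0 FPKM in shr-2, where the second library alone was low (log2 difference -0.15, 95% interval -0.51 to 0.20, adjusted p = 0.466). The ratio of SYP41 to SYP42 was 2.05 and 2.56 in wild type and 0.928 and 1.02 in shr-2. The differences between relatives were not themselves tested, here or in the pairs below. SYP41 shares 82.5% of bases with SYP43 over 996 aligned transcript bases. The SYP41 gene overlaps DI19-6 on the opposite strand by 537 bases, and DI19-6 stood at 12.3 and 12.5 FPKM in wild type and at 11.9 and 11.6 FPKM in shr-2 (adjusted p = 0.609).

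SYP31 and SYP32 are the Golgi syntaxins of the yeast Sed5 type. SYP31 (chr5:1728893-1731090, minus strand) was at 14.9 and 14.8 FPKM in wild type and at 7.83 and 8.01 FPKM in shr-2, with tight duplicates in both groups. The fall was -0.83 ± 0.09 on the log2 scale (SE, adjusted p = 0.00392). SYP32 was at 24.3 and 24.4 FPKM in wild type and at 28.4 and 26.4 FPKM in shr-2, so that it lay above wild type in both mutant libraries without passing the test (log2 difference 0.16, 95% interval -0.07 to 0.39, adjusted p = 0.25). The ratio of SYP31 to SYP32 was 0.615 and 0.607 in wild type and 0.276 and 0.304 in shr-2. SYP31 overlaps the gene AT5G05750 on the opposite strand by 41 bases. That neighbour fell as well, from 31.7 and 30.7 FPKM in wild type to 6.79 and 6.38 FPKM in shr-2 (log2 difference -2.09, adjusted p = 0.000398). The library kit keeps strand. The sources used here do not give whether the counting did so as well, and the part of the neighbour's reads in the SYP31 value was not tested.

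The SYP2 syntaxins serve the prevacuolar compartment and the vacuole. SYP22 (VAM3) was at 73.5 and 69.8 FPKM in wild type and at 55.5 and 56.6 FPKM in shr-2 (log2 difference -0.35 ± 0.09, SE, adjusted p = 0.0404). SYP21 (PEP12) was also lower in both shr-2 libraries, at 37.8 and 37.7 FPKM against 45.9 and 44.3 FPKM, but missed the threshold (adjusted p = 0.0871). SYP23 was more abundant than either and its groups overlapped, at 145 and 134 FPKM in wild type and 139 and 136 FPKM in shr-2. SYP81, a syntaxin of the endoplasmic reticulum, was at 17.8 and 18.8 FPKM in wild type and 13.6 and 17.3 FPKM in shr-2 (adjusted p = 0.25).

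**Figure D2:**
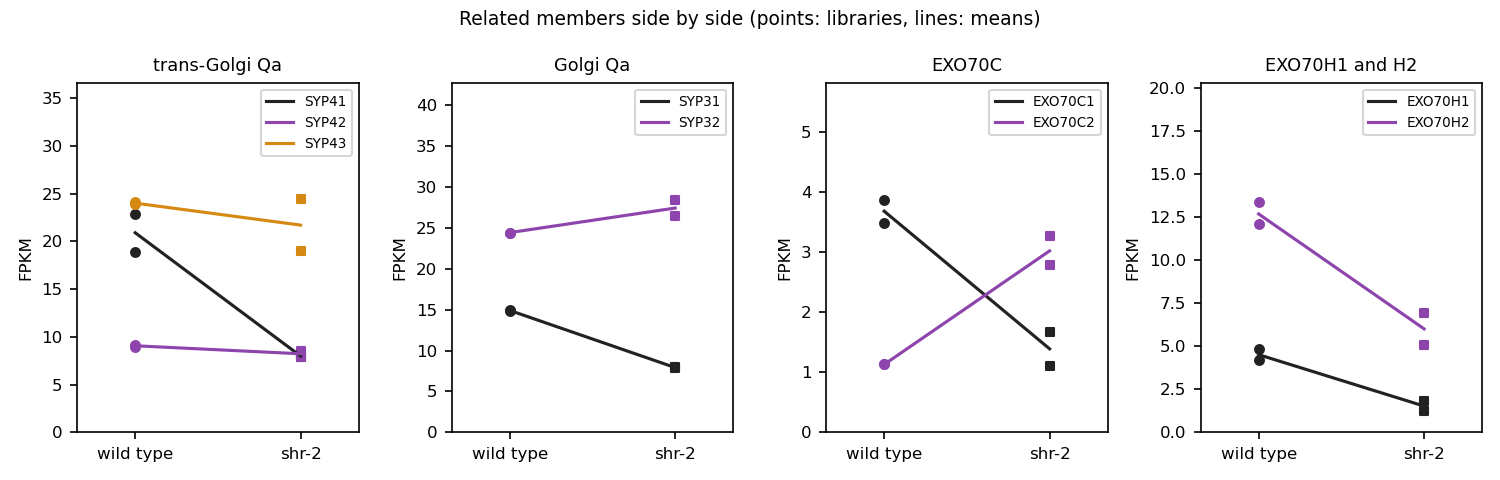
FPKM in each library (points) with genotype means joined by lines for 4 sets of related members: SYP41, SYP42 and SYP43, SYP31 and SYP32, EXO70C1 and EXO70C2, and EXO70H1 and EXO70H2. SYP41 drops to the level of SYP42 in shr-2, and the EXO70C lines cross.

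Of the 6 Qc-SNAREs, 3 fell. SYP71, a Qc-SNARE of the plasma membrane, endoplasmic reticulum and cell plate, was at 85.4 and 86.4 FPKM in wild type and 68.2 and 68.8 FPKM in shr-2 (log2 difference -0.32 ± 0.08, SE, adjusted p = 0.0447). SYP73, a relative that links the endoplasmic reticulum to actin, was much less abundant, at 2.29 and 1.81 FPKM against 1.02 and 1.11 FPKM (-0.56 ± 0.15, SE, adjusted p = 0.0472). SYP72 showed similar levels, 1.98 and 1.56 FPKM against 1.05 and 1.06 FPKM, and did not pass (adjusted p = 0.092). SYP51 and SYP52 act on the route to the vacuole. SYP52 fell, from 35.9 and 30.5 FPKM to 24.5 and 23.3 FPKM (-0.45 ± 0.11, SE, adjusted p = 0.0404). SYP51, several times more abundant, was at 152 and 149.6 FPKM in wild type and 115 and 134 FPKM in shr-2 (adjusted p = 0.13). SYP61, a Qc-SNARE that pairs with SYP41 at the trans-Golgi network, had overlapping groups, at 46.2 and 40.4 FPKM in wild type and 49.2 and 37.6 FPKM in shr-2. Its 95% interval, -0.41 to 0.40 on the log2 scale, goes with mutant duplicates that lie far apart.

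At the plasma membrane and cell plate, 3 of 5 tested SYP1 syntaxins fell (60.0%, beside 13.7% of all genes), and they were the less abundant ones. SYP112, the closest relative of the cytokinesis syntaxin KNOLLE and able to act in its place, was at 5.60 and 4.14 FPKM in wild type and 2.13 and 2.12 FPKM in shr-2 (-0.90 ± 0.16, SE, adjusted p = 0.0153). SYP123, known from root hair growth, was at 4.93 and 5.37 FPKM in wild type and 3.13 and 2.13 FPKM in shr-2 (-0.77 ± 0.17, SE, adjusted p = 0.028). SYP123 overlaps AT4G04505 on the opposite strand by 295 bases, a gene whose own values scattered from 0.762 to 6.66 FPKM. SYP122, a defence-linked syntaxin, fell from 11.6 and 10.7 FPKM to 8.36 and 8.41 FPKM (-0.37 ± 0.10, SE, adjusted p = 0.047). Its partner in function SYP121 (PEN1), required for penetration resistance and for ion channel traffic, was at 31.1 and 27.8 FPKM in wild type and 26.6 and 23.7 FPKM in shr-2 (-0.22, 95% interval -0.50 to 0.06, adjusted p = 0.207). SYP132, the essential and most abundant plasma membrane syntaxin here, had overlapping groups at 48.7 and 46.2 FPKM against 51.2 and 48.6 FPKM (0.07, 95% interval -0.16 to 0.30, adjusted p = 0.599). KNOLLE itself, outside the symbol rule, was at 30.1 and 28.0 FPKM in wild type and 28.8 and 23.0 FPKM in shr-2 (adjusted p = 0.407).

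SNAP33, the SNAP25-like partner of both KNOLLE and SYP121, was at 58.3 and 56.7 FPKM in wild type and 54.2 and 55.7 FPKM in shr-2 (-0.06, 95% interval -0.28 to 0.15, adjusted p = 0.614). SNAP29 was at 1.98 and 2.2 FPKM in wild type and 2.43 and 2.78 FPKM in shr-2 (adjusted p = 0.267). Neither tested SNAP gene passed limma's threshold, and at an unadjusted p under 0.05, as in the authors' deposited table, the count was 0 too. Over all genes, 13.7% fell and 13.9% rose by limma, and 20.0% and 20.5% did so at the unadjusted threshold.

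Of the VAMP71 and VAMP72 branches of R-SNAREs, 1 of 2 and 0 of 5 tested genes fell. VAMP711 (chr4:15525979-15527926, minus strand), an R-SNARE of the vacuolar membrane, had the highest level of all 59 genes, 406 and 458 FPKM in wild type against 246 and 289 FPKM in shr-2. It fell by 0.69 on the log2 scale (SE 0.13, adjusted p = 0.0185). With it the summed level of the VAMP71 members, which leaves out VAMP713, went from 466 and 524 FPKM to 293 and 343 FPKM. VAMP714 lay lower in both mutant libraries, at 47.4 and 53.4 FPKM against 59.8 and 66.9 FPKM, and did not pass (adjusted p = 0.0896). None of the 5 tested VAMP72 members, of the branch that carries secretory vesicles, passed the test, and their median log2 difference was -0.03. The count was also 0 at an unadjusted p under 0.05 (20.0% of all genes lower, 20.5% higher) and in the authors' deposited table. VAMP724, of this branch but outside the symbol rule, was at 174 to 276 FPKM and rose in shr-2, as given below. VAMP721, which works with SYP121 and SNAP33 and also at the cell plate, was at 119 and 125 FPKM in wild type and 108 and 113 FPKM in shr-2 (-0.14, 95% interval -0.37 to 0.09, adjusted p = 0.305). VAMP722, its near copy outside the symbol rule with 90.2% of bases shared over 646 aligned bases, was at 135 and 142 FPKM against 111 and 134 FPKM (adjusted p = 0.326), and reads shared by the pair could move between them. VAMP727, an R-SNARE of the prevacuolar compartment that pairs with SYP22, had overlapping groups at 36.1 and 35.8 FPKM against 37.6 and 33.5 FPKM. VAMP723, VAMP726 and VAMP728 were between 3.07 and 6.26 FPKM in the 4 libraries, with adjusted p of 0.881, 0.30 and 0.61. VAMP723 shares 91.1% of bases with the far more abundant VAMP722 over 609 aligned bases. The part of VAMP722 reads in the VAMP723 value was not tested.

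**Figure D3:**
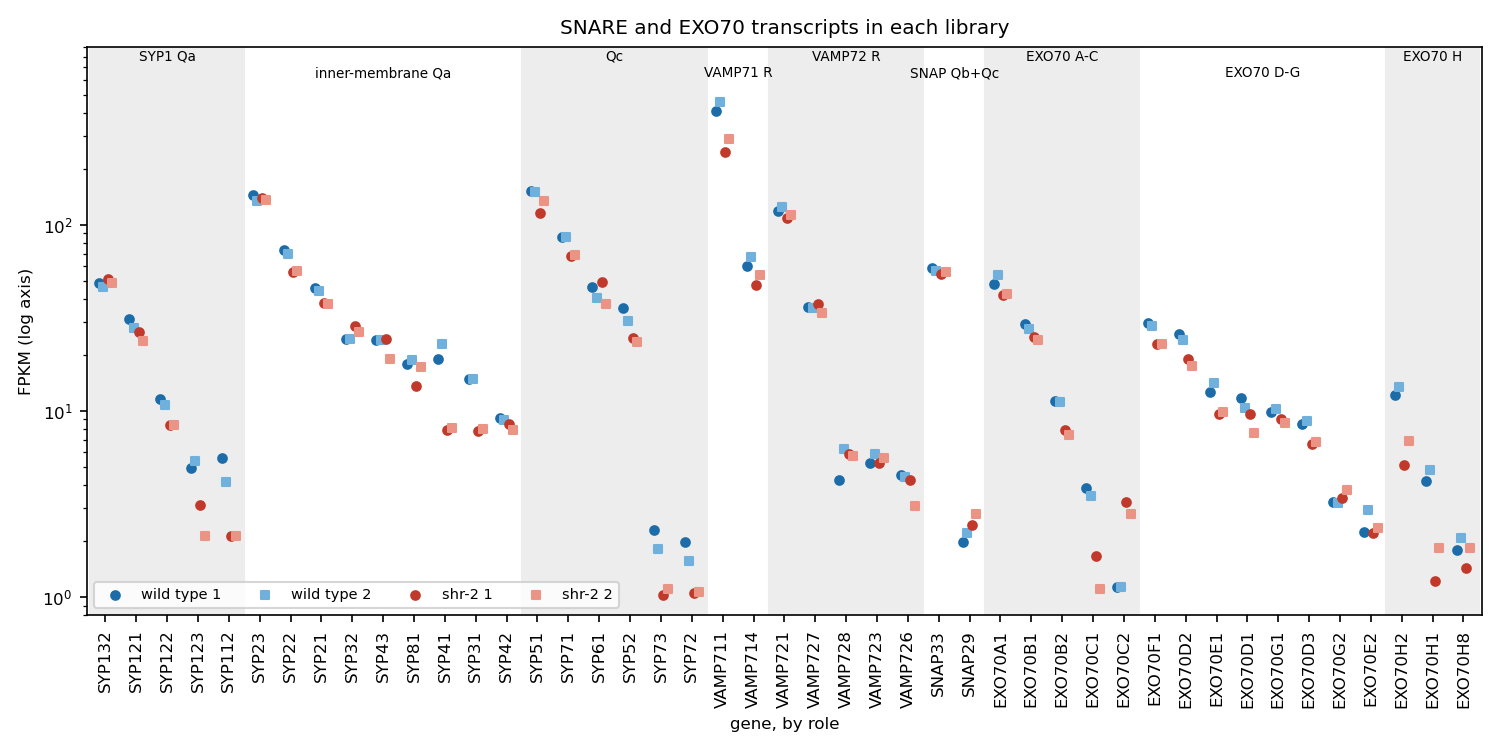
FPKM on a log scale in each of the 4 libraries for the 45 tested members, grouped by role (circles and squares: first and second library, blue: wild type, red: shr-2). VAMP711 is the most abundant at 246 to 458 FPKM, and in 32 of the 45 genes both red points lie below both blue points.

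EXO70 transcripts summed to 216 and 219.8 FPKM in wild type and to 170.0 and 168 FPKM in shr-2. EXO70A1, EXO70B1, EXO70F1 and EXO70D2 held 60.8 to 63.9% of that sum in every library. EXO70A1, the general exocyst subunit, needed for polar growth and for placing the Casparian strip, was at 48.2 and 53.4 FPKM in wild type and 41.8 and 42.2 FPKM in shr-2. Both mutant libraries were lower, but the log2 difference of -0.27 (95% interval -0.51 to -0.02) had an adjusted p of 0.0994. EXO70B1 and EXO70B2 act in immunity, and EXO70B1 also in transport linked to autophagy. EXO70B2 fell, from 11.3 and 11.1 FPKM to 7.94 and 7.43 FPKM (-0.50 ± 0.10, SE, adjusted p = 0.0204). EXO70B1 was at 29.4 and 27.7 FPKM against 24.8 and 23.9 FPKM (-0.22, 95% interval -0.45 to 0.01, adjusted p = 0.136).

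The EXO70C genes, known from pollen and pollen tube growth, were measured at low levels in hypocotyls and went in opposite directions. EXO70C1 (chr5:4172734-4175362, minus strand) fell from 3.87 and 3.49 FPKM to 1.67 and 1.10 FPKM (-0.98 ± 0.16, SE, adjusted p = 0.0131). EXO70C2 (chr5:4514568-4516892, minus strand) rose from 1.13 FPKM in both wild type libraries to 3.26 and 2.79 FPKM (0.92 ± 0.13, SE, adjusted p = 0.00851). The ratio of EXO70C1 to EXO70C2 was 3.44 and 3.08 in wild type and 0.512 and 0.395 in shr-2. The rise was not called in the authors' deposited table (q = 0.319), and with either wild type library left out its adjusted p was 0.0541 and 0.0516. EXO70C2 overlaps AT5G13980 on the opposite strand by 99 bases, and this neighbour rose from 35.3 and 35.9 FPKM to 49.7 and 49.8 FPKM (log2 difference 0.47, adjusted p = 0.0152). The part of its reads in the EXO70C2 value was not tested. The 6 pollen markers summed to 2.96 and 3.14 FPKM in wild type and 4.19 and 3.87 FPKM in shr-2, with 3 of them at 0 in all libraries. Nearly all of that sum was ANX1, at 2.96 and 3.04 FPKM in wild type and 3.84 and 3.56 FPKM in shr-2. ANX1 did not pass the test (adjusted p = 0.201), and no other pollen marker exceeded 0.265 FPKM.

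Of the 8 EXO70H genes, 3 were tested and 2 fell (66.7% of those tested, beside 13.7% of all genes). EXO70H1 (chr3:20440491-20442650, minus strand), linked to defence, fell from 4.20 and 4.84 FPKM to 1.22 and 1.84 FPKM (-1.14 ± 0.17, SE, adjusted p = 0.00902). EXO70H2 (chr2:16447006-16449083, minus strand) fell from 12.1 and 13.4 FPKM to 5.11 and 6.92 FPKM (-0.98 ± 0.16, SE, adjusted p = 0.0112). The ratio of EXO70H2 to EXO70H1 was 2.88 and 2.77 in wild type and 4.19 and 3.77 in shr-2. All of EXO70H2, 2078 bases, lies within the opposite-strand model AT2G39375, which was at 0.0777 to 0.274 FPKM in the 4 libraries. EXO70H8 had overlapping groups, at 1.78 and 2.07 FPKM against 1.44 and 1.84 FPKM (adjusted p = 0.50).

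The 250 bases before the annotated starts of the EXO70C and EXO70H pairs are shown because these pairs held the largest EXO70 differences and, in EXO70C, opposite directions. The sequences are from the TAIR10.1 assembly with the RefSeq annotation, 5′ to 3′ on the gene's strand, and capitals mark matches to the W-box core TTGACC or TTGACT, the motif bound by WRKY factors of defence, read on either strand (GGTCAA or AGTCAA on the other). The windows are EXO70C1 at chr5:4175363-4175612, EXO70C2 at chr5:4516893-4517142, EXO70H1 at chr3:20442651-20442900 and EXO70H2 at chr2:16449084-16449333, all on the minus strand, the last inside the AT2G39375 model.
EXO70C1: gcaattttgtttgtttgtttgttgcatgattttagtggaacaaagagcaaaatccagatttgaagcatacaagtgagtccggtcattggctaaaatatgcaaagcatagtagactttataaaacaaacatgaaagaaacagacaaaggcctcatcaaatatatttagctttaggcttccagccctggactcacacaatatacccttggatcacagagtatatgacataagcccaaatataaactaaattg
EXO70C2: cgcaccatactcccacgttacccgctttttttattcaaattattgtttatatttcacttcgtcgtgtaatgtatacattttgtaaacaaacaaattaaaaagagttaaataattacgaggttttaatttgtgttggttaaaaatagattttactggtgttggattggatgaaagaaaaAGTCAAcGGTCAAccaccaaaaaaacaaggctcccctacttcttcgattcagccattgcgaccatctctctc
EXO70H1: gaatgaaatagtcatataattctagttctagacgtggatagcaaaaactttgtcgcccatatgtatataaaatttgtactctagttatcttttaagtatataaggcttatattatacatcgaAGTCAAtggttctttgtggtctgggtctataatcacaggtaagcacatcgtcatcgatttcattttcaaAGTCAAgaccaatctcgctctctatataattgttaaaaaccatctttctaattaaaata
EXO70H2: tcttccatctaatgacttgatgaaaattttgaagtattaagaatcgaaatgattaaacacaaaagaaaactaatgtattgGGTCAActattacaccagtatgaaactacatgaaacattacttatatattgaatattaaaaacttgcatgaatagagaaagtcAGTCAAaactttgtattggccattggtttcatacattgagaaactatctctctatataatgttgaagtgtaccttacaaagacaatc
EXO70C2, EXO70H1 and EXO70H2 each hold 2 matches and EXO70C1 holds 0. The core was found in 28.4% of 27443 promoter windows of this length and in 18 of the 59 members, 30.5%, so the members' share lies near that of all genes. Among the called members with a match are SYP112, SYP122 and SYP73. The G-box CACGTG was in 6.49% of all windows and in 6 of the 59, and in none of the 4 shown. A match is a description of these letters only.

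All 8 EXO70 genes of the D to G branches were tested, and 3 fell (37.5%, beside 13.7% of all genes). EXO70D2, of a subgroup known for directing type-A response regulators of cytokinin signalling to autophagy, went from 26.0 and 23.9 FPKM to 19.1 and 17.5 FPKM (-0.43 ± 0.10, SE, adjusted p = 0.0337). EXO70E1 went from 12.7 and 14.1 FPKM to 9.67 and 9.91 FPKM (-0.42 ± 0.10, SE, adjusted p = 0.0376), and EXO70F1 from 29.7 and 28.6 FPKM to 22.9 and 22.8 FPKM (-0.34 ± 0.09, SE, adjusted p = 0.0421). EXO70D1 and EXO70D3 lay below wild type in both mutant libraries without passing the test, with log2 differences of -0.34 and -0.32 (adjusted p = 0.143 and 0.0668). EXO70E2, which marks a double-membrane compartment of unconventional secretion, had overlapping groups at 2.23 and 2.92 FPKM against 2.2 and 2.36 FPKM. EXO70G1 and EXO70G2 had log2 differences of -0.18 and 0.12 (adjusted p = 0.232 and 0.484), and both lie under opposite-strand models.

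Other parts of the same machinery were read from the same fit. Of 12 genes for exocyst core subunits other than EXO70, 11 were tested and 0 passed in either direction by limma (1 lower and 1 higher at an unadjusted p under 0.05, where 20.0% of all genes were lower and 20.5% higher, and 1 higher, SEC3B, in the authors' deposited table), with a median log2 difference of -0.10 and a summed level of 279 and 287 FPKM in wild type against 257 and 258 FPKM in shr-2. The difference between this count and that of EXO70 was not tested. Of 18 tested SNAREs filed under other symbols, 4 fell (22.2%, beside 13.7% of all genes) and 1 rose (5.56%, beside 13.9%), with a median of -0.17. NPSN12 and NPSN13, Qb-SNAREs of the plasma membrane and cell plate, fell from 27.9 and 26.1 FPKM to 15.1 and 14.3 FPKM (-0.83 ± 0.09, SE, adjusted p = 0.00413) and from 57.6 and 55.2 FPKM to 34.0 and 31.5 FPKM (-0.77 ± 0.09, SE, adjusted p = 0.00485). VTI12, the Qb-SNARE that joins SYP41 and SYP61 at the trans-Golgi network, fell from 85.2 and 70.2 FPKM to 48.5 and 41.5 FPKM (-0.77 ± 0.14, SE, adjusted p = 0.016). VAMP713, a vacuolar relative of VAMP711, fell from 47.8 and 47.9 FPKM to 37.2 and 37.5 FPKM (-0.35 ± 0.08, SE, adjusted p = 0.0354). VAMP724, of the VAMP72 branch, was the one that rose, from 202 and 174 FPKM to 276 and 273 FPKM (0.55 ± 0.11, SE, adjusted p = 0.0232), so its ratio to VAMP721 was 1.70 and 1.39 in wild type and 2.55 and 2.42 in shr-2.

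**Figure D4:**
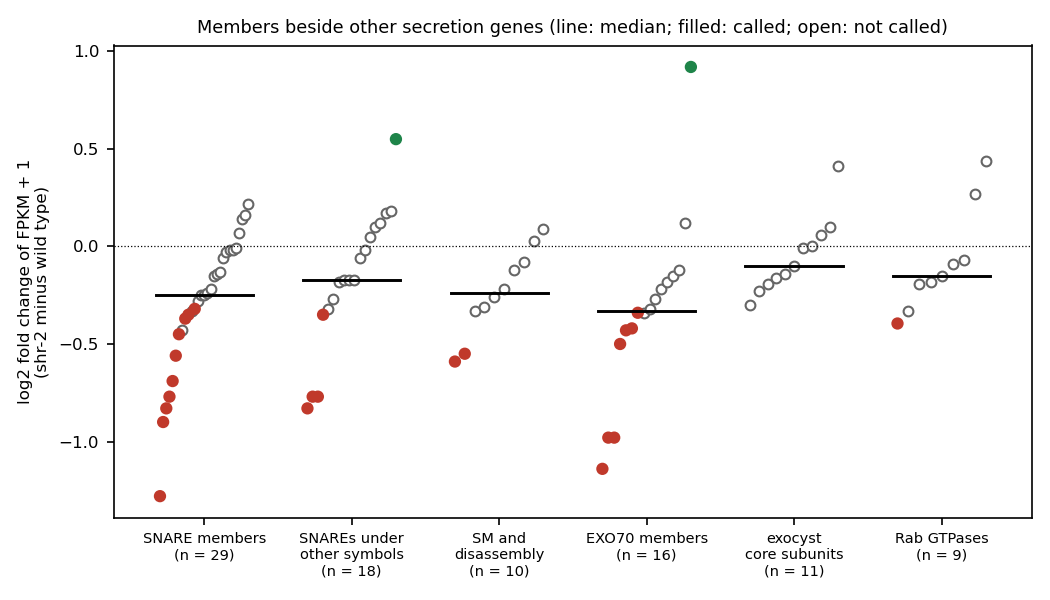
Log2 difference of FPKM + 1, shr-2 minus wild type, for each tested gene (points, filled where called) in 6 groups of secretion genes, with the group median as a line. The medians are -0.25 for SNARE members, -0.17 for SNAREs under other symbols, -0.24 for SM and disassembly factors, -0.33 for EXO70 members, -0.10 for the exocyst core and -0.15 for Rab GTPases.

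Of the 10 SM proteins and disassembly factors, which guide SNARE assembly and take spent complexes apart, 2 fell (20.0%, beside 13.7% of all genes). SEC1B fell from 3.83 and 4.04 FPKM to 2.65 and 2.1 FPKM (-0.55 ± 0.14, SE, adjusted p = 0.0393), and ALPHA-SNAP1 from 5.86 and 7.40 FPKM to 3.81 and 4.30 FPKM (-0.59 ± 0.14, SE, adjusted p = 0.0382). KEULE, the SM partner of KNOLLE, was at 46.9 and 49.5 FPKM against 37.4 and 39.8 FPKM (adjusted p = 0.0605).

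The 14 members below 1 FPKM on average were not tested. SYP131, EXO70H3, EXO70H5 and EXO70H6 were listed at 0 in all 4 libraries. SYP125, a pollen syntaxin, was the highest of the rest in any library, at 0.608 and 0.511 FPKM in wild type and 1.4 and 0.676 FPKM in shr-2, so that 1 mutant library stood well above the other 3. VAMP725 was at 0.479 to 0.834 FPKM and SYP24 at 0.0822 to 0.406 FPKM. SYP124, EXO70A2, EXO70A3, EXO70H4, EXO70H7, SNAP30 and VAMP712 never exceeded 0.258 FPKM. EXO70H6 overlaps the opposite-strand model AT1G07728 by 2288 bases, and that model was at 9.91 to 11.2 FPKM. EXO70H7 overlaps AT5G59732 on the opposite strand by 2221 bases, at 7.65 to 12.7 FPKM. How reads were shared out between these models and the EXO70H genes was not tested. VAMP712 was listed at 0 in wild type and at 0.170 and 0.258 FPKM in shr-2. By a rough estimate this corresponds to 2.62 and 3.90 fragments, too few to read a difference from.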

How the data were processed

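The submitters' processing notes name CASAVA 1.8.2, TopHat2 2.0.13, Cuffdiff 2.2.0 and TAIR10. Gene models came from Araport11, per the file headers. The authors deposited one FPKM per gene and library, a fragment number relative to the length of the transcript and the size of the library. Their Cuffdiff comparison is quoted as the authors' deposited values, which comprise log2 fold changes, an unsigned fold (ratio), a test score, p-values and q-values. No counts were used. Depth was read from the smallest steps of the FPKM values in transcripts of at least 1.5 kb: 1 FPKM stood for an estimated 22.9 to 23.6 fragments per kb in the 4 libraries. The step was sought only within a range of values set beforehand. The medians found, 0.0424 to 0.0437 FPKM for 1 fragment per kb, lie near the middle of that range. The fragment estimates are therefore rough, and both their size and their likeness between libraries may be set by that range. FPKM is relative to each library's total.

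The 19920 genes averaging 1 FPKM or more were fitted with limma 3.58.1 (R 4.3.3) on log2(FPKM + 1), lmFit and eBayes with trend, 2 libraries against 2, 2-sided, with Benjamini-Hochberg adjustment over all genes and a threshold of 0.05. A fold change on this scale understates the change of low genes. Libraries were grouped by title. Duplicates correlated at r = 0.984 and 0.981 across genes. Members are all genes that match the symbol rule. Values and full statistics were planned for up to 4 called members per role and for a few core genes, and from other lists for up to 3 called genes with the smallest adjusted p. The plan had other uncalled members by range and counts only. The library values given for many of them, such as SYP42, SYP43, SYP32 and EXO70B1, go beyond it. VAMP713, VAMP724, SEC3B, KEULE, the overlapping neighbours and the 4 promoters were chosen after their values were seen. Members and lists were chosen with earlier results of these data known. Of 170 list entries, 164 were paired with the files. Coordinates are TAIR10, with the locus of all 59 members containing the gene in TAIR10.1 (RefSeq), from which promoters were read. Transcripts were compared with blastn 2.17.0. Alternatives were a pseudocount of 0.1, no filter, a mean of at least 5 FPKM, quantile and median scaling, no trend, a replicate block, each library left out, and the authors' calls.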

Additional observations from a re-analysis of the deposited data

How the results depend on the processing

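Over all genes, 2778 were higher and 2725 lower in shr-2. With the replicate number as a block these became 4486 and 4243. The same-numbered libraries' deviations correlated at 0.305 over only 2 pairs, so the numbers are not shown to pair the libraries. Under that block 25 members were lower, beside 21.3% of all genes, holding all 17 and adding EXO70A1, EXO70B1, EXO70D1, EXO70D3, SYP21, SYP51, SYP121 and VAMP714. Leaving out each library gave 964 to 2053 genes higher and 1094 to 1799 lower, with 0 to 1 members higher and 2 to 7 lower. The cause was not tested, beyond the smaller number of libraries.

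Members called higher were 1 in the fit reported (13.9% of all genes) and 2 with no filter (10.6%). They were 0 among genes of at least 5 FPKM (14.6%), where EXO70C2 is not tested, and 0 in the authors' deposited table (12.6%). The member added with no filter was VAMP712, which passed that setting only through shr-2. It was listed at 0 in wild type and at 0.17 and 0.258 FPKM in shr-2, too few fragments to read a difference from. Members called lower were 17 with a pseudocount of 0.1 (13.6% of all genes) and with median scaling (14.3%), 15 with quantile scaling (14.0%), 14 with no filter (10.7% of 25582 genes), 13 with no trend (13.3%), and 12 both at 5 FPKM (13.6% of 15616 genes) and in the authors' table (12.2% of 21844 genes). The median log2 difference of all genes was 0.013, 0.015 and 0.0026 under the 3 scalings.

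Every sign change was of an uncalled member near 0. With each library left out in turn, log2 differences ran from -0.26 to 0.023 for EXO70E2, -0.072 to 0.038 for SYP23, -0.32 to 0.021 for SYP43, -0.19 to 0.18 for SYP61 (0.089 without wild type 1), -0.097 to 0.043 for VAMP723 (0.012 without shr-2 1), -0.096 to 0.066 for VAMP727 and -0.098 to 0.38 for VAMP728. SYP61 was at 0.0036 in the authors' table.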

Other observations

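Further trafficking and defence genes were read from the same fit. Of the 9 Rab GTPases that mark secretory and endosomal membranes, 1 fell (11.1%, beside 13.7% of all genes). It was RHA1, an endosomal Rab of the Rab5 type. RHA1 went from 92.5 and 85.8 FPKM in wild type to 68.3 and 67.5 FPKM in shr-2 (log2 difference -0.39, adjusted p = 0.0333). None of the 4 HOPS and CORVET tethers, which join vacuolar membranes, passed in either direction by limma, with 3 lower at an unadjusted p under 0.05 (20.0% of all genes), 0 in the authors' deposited table and a median of -0.27. A list of defence genes held 6 that were tested (PEN2, PEN3, PMR4, FLS2, PAD3 and WRKY33). Of these 2 fell and 1 rose, beside 13.7% and 13.9% of all genes. PEN3, an ABC transporter, and FLS2, the flagellin receptor, fell by 0.41 and 0.40 on the log2 scale (adjusted p = 0.0408 and 0.042). PAD3, the last enzyme of camalexin synthesis, rose from 1.57 and 1.60 FPKM to 8.14 and 8.58 FPKM (log2 difference 1.86, adjusted p = 0.000901).

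Several members are tandem neighbours. VAMP721 and VAMP726 lie 881 bases apart on chromosome 1, at 119 and 125 against 4.55 and 4.41 FPKM in wild type. EXO70H5 and EXO70H8 lie 2309 bases apart on chromosome 2, EXO70H4 and EXO70H3 152 bases apart on chromosome 3, and EXO70A2 and EXO70A3 773 bases apart on chromosome 5. In these 3 EXO70 pairs only EXO70H8 reached a mean of 1 FPKM. Opposite-strand or same-strand overlap with another gene model touches 25 of the 59 members. SYP124, untested, overlaps AT1G61280 on the same strand by 232 bases, and that gene rose from 2.77 and 3.04 FPKM to 4.71 and 6.23 FPKM (adjusted p = 0.0265).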
